A study of Mus musculus with 6 samples.

Results

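The genes of the phagocyte NADPH oxidase and its RAC GTPases were followed through the induction of PU.1 in a mouse pro-B cell line. Rows of the authors' deposited table were taken where the gene symbol was Cybb, Cyba, Ncf1, Ncf4, Rac1 or Rac2, which gave 6 genes of the 23793 rows in the table, each found once. Messenger RNA was sequenced from i660BM cells, which are interleukin 7-dependent pro-B cells (early B cell precursors) of C57BL/6 origin with a doxycycline-inducible PU.1. The induced group comprised 3 libraries from cells given doxycycline at 70 ng/ml for 48 h, and the non-induced group comprised 3 libraries from cells of the same line without it. Both groups carry the inducible construct and are a single cell line, and no library received doxycycline without PU.1, so the drug and the factor cannot be told apart. The table holds 1 FPKM value per gene and group, that is, fragments per transcript length and depth, and no value per library, so no spread between libraries can be given.

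The oxidase makes superoxide in neutrophils and macrophages and, at lower levels, in B cells. Cybb (gp91phox, NOX2) and Cyba (p22phox) form the membrane cytochrome, in which Cybb carries the catalytic centre and Cyba stabilises it. Ncf1 (p47phox) and Ncf4 (p40phox) wait in the cytosol and join the cytochrome when Ncf1 is phosphorylated. A RAC GTPase in its GTP-bound form is also part of the active enzyme. Rac2 is the blood cell form, and Rac1 is found in nearly all cells. PU.1, the product of Spi1, is known from work in human myeloid cells to act at the promoters of several of these genes.

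The labels were checked first. Spi1 stood at 246 FPKM in induced and 36.0 FPKM in non-induced cells in the authors' deposited table. Of 10 pro-B cell markers all were tested and 8 were called higher in the authors' deposited table, against 19.0% of all tested rows. Among them Rag1 (called higher) and Rag2 (not called) were near 0 in non-induced cells, at 0.00348 and 0.00853 FPKM. Of tested rows under 0.1 FPKM in non-induced cells, 70.0% were called higher and 0 lower. The marker count describes the cells and does not check which group was induced. From the spacing of very low FPKM values, depth was put at about 122000000 fragments for the induced and 119000000 for the non-induced group, an average per library of about 40600000 (induced) and 39700000 (non-induced).

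A gene was called where the authors had tested it and their Cuffdiff q-value was under 0.05. All 6 genes were tested, and 4 were called: Cybb, Ncf1 and Rac2 were higher and Ncf4 was lower in induced cells. Among all tested rows the authors' deposited table called 35.1%, with 19.0% higher and 16.1% lower. The smallest q-value that the table gives is 0.000287, and the 4 called genes share it. Cyba and Rac1 were not called. Errors are given as an implied standard error, the log2 change divided by the deposited test statistic, and 95% intervals are taken from it as for a normal value.

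**Figure D1:**
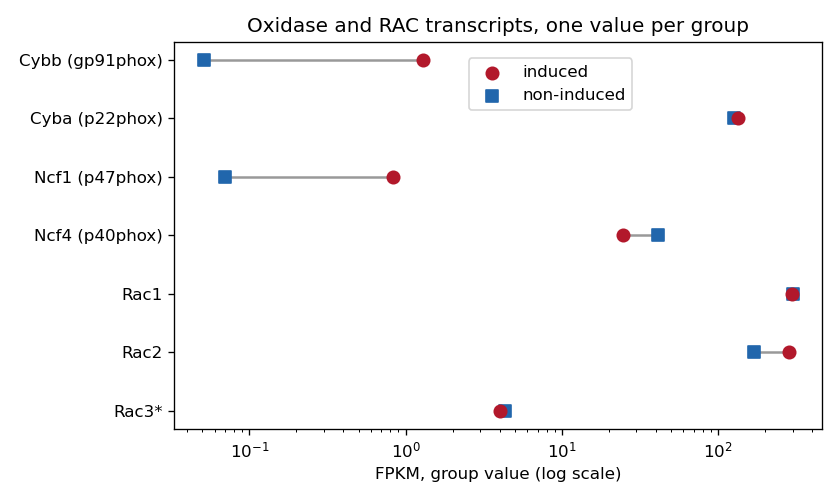
Group FPKM (x axis, log scale) of the oxidase subunits and RAC genes (rows) in induced (circles) and non-induced cells (squares), with no error because 1 value per group was deposited. An asterisk marks Rac3, which is outside the 6. Cybb lies at 1.29 FPKM in induced and 0.0510 FPKM in non-induced cells, while Rac1 lies at 297 FPKM in induced and 300.3 FPKM in non-induced cells.

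Of the transcripts for the 2 chains of the membrane cytochrome, 1 was called. Cybb stood at 1.29 FPKM in induced and 0.0510 FPKM in non-induced cells in the authors' deposited table, a 25.3-fold difference. Its log2 change there was 4.66 with an implied standard error of 0.47 (q = 0.000287, Cuffdiff). The FPKM values of Cybb correspond to about 750 fragments over the induced libraries and about 29 over the non-induced ones, counted on its principal transcript of 4752 nt. Even in induced cells Cybb was low: its FPKM was above 10.8% of tested rows, against 0.638% in non-induced cells. Cyba stood at 134 FPKM in induced and 127 FPKM in non-induced cells in the authors' deposited table, above 94.1% of tested rows in induced and 93.5% in non-induced cells. Its log2 change of 0.08 (q = 0.508, Cuffdiff, authors' deposited table) had an interval of -0.14 to 0.30, which does not show that its level was equal in both groups. Per transcript length, Cyba exceeded Cybb 104-fold in induced and 2488-fold in non-induced cells. The difference between the log2 changes of Cyba and Cybb was -4.58, with an implied standard error of 0.49 if the errors of both genes are independent.

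The transcripts of the cytosolic subunits Ncf1 and Ncf4 moved in opposite directions. Ncf1 stood at 0.836 FPKM in induced and 0.0703 FPKM in non-induced cells in the authors' deposited table, an 11.9-fold difference with a log2 change of 3.57 and an implied standard error of 0.64 (q = 0.000287, Cuffdiff). These values correspond to about 280 fragments over the induced and about 23 over the non-induced libraries. Ncf4 stood at 24.6 FPKM in induced and 41.0 FPKM in non-induced cells in the authors' deposited table. Its log2 change there was -0.74 with an implied standard error of 0.14 (q = 0.000287, Cuffdiff), a 1.67-fold fall, and rested on about 4400 fragments in the induced and about 7200 in the non-induced group. Per transcript length Ncf4 stood above Ncf1 in both groups, 29.4-fold in induced and 584-fold in non-induced cells. The log2 changes of Ncf4 and Ncf1 differed by -4.31 (implied standard error 0.66). The log2 changes of Cybb and Ncf1 differed by 1.09, with an interval of -0.47 to 2.65 that contains 0.

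**Figure D2:**
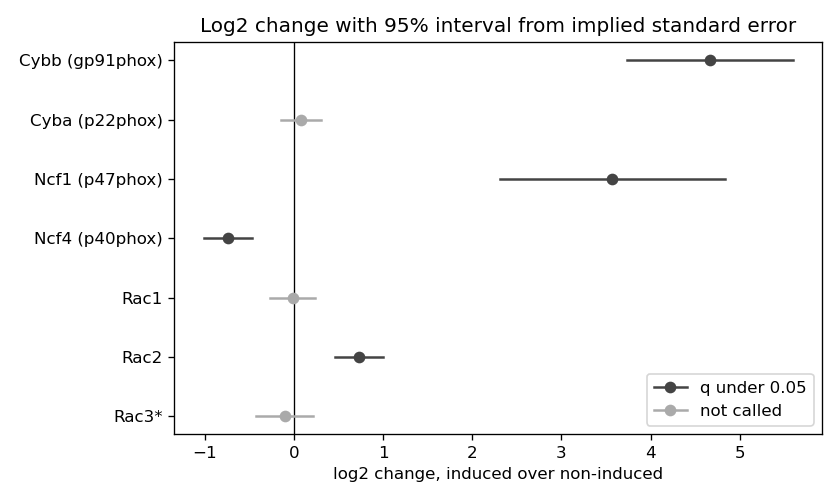
Log2 change of induced over non-induced cells (x axis) for the oxidase subunits and RAC genes (rows), with 95% intervals from the implied standard error. An asterisk marks Rac3, which is outside the 6. Cybb (4.66) and Ncf1 (3.57) have wide intervals above 0, Rac2 (0.73) a narrow one, Ncf4 (-0.74) lies below 0, and the intervals of Cyba and Rac1 contain 0.

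Cybb and Ncf1 belong to rows that could be tested only with a sizeable value in induced cells. Of 12823 rows under 0.1 FPKM in non-induced cells the authors had tested 100, and 70.0% of these were called higher and 0 lower in the authors' deposited table. A call of higher was thus the usual outcome among tested rows of such low level, and the calls of Cybb and Ncf1 match that background. By log2 change Cybb was the 60th and Ncf1 the 85th highest of 10657 tested rows, 26 rows listed at 0 in non-induced cells included. Rac2 was the 545th highest. Ncf4 was the 334th lowest, not counting 3 tested rows listed at 0 in induced cells.

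**Figure D3:**
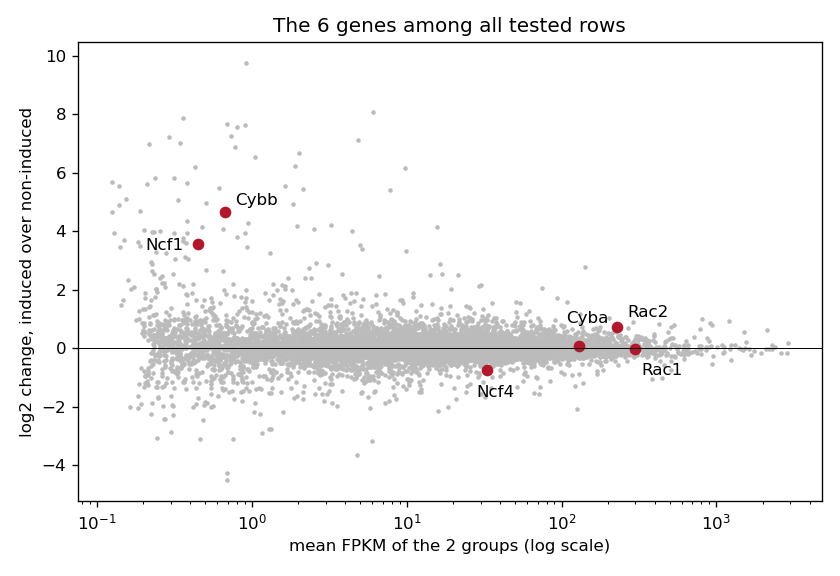
Log2 change of induced over non-induced cells (y axis) against the mean FPKM of both groups (x axis, log scale) for tested rows with a finite change (grey) and for the 6 genes (red). Cybb and Ncf1 lie at low mean FPKM, where changes spread widely, and Rac2 and Rac1 at high mean FPKM.

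The RAC genes were the most abundant of the 6. Rac2 stood at 285 FPKM in induced and 171 FPKM in non-induced cells in the authors' deposited table, a 1.66-fold rise with a log2 change of 0.73 and an implied standard error of 0.14 (q = 0.000287, Cuffdiff). Rac1 stood at 297 FPKM in induced and 300.3 FPKM in non-induced cells in the authors' deposited table. Its log2 change of -0.015 was not called (q = 0.928, Cuffdiff, authors' deposited table) and had an interval of -0.27 to 0.24. The log2 change of Rac2 exceeded that of Rac1 by 0.75, with an implied standard error of 0.19 and an interval of 0.38 to 1.12. Among tested rows of at least 100 FPKM on average, 17.1% were called higher and 14.8% lower in the authors' deposited table. Rac3, the RAC gene known from the nervous system, stood at 4.01 FPKM in induced and 4.30 FPKM in non-induced cells and was not called (q = 0.54, Cuffdiff) in the authors' deposited table. Of the summed FPKM of the 3 RAC genes, 586 in induced and 476 in non-induced cells, Rac2 made up 48.6% in induced and 36.0% in non-induced cells. Rac1 made up 50.7% in induced and 63.1% in non-induced cells.

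**Figure D4:**
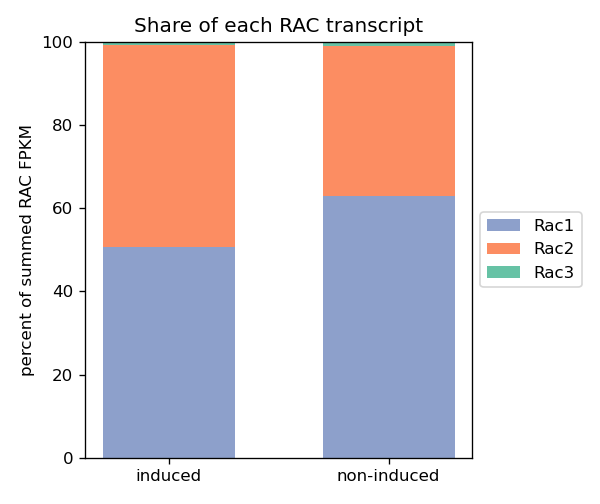
Share of Rac1, Rac2 and Rac3 in the summed FPKM of these genes (y axis, percent) in induced and non-induced cells, 1 value per group with no error. The Rac2 share is 48.6% in induced and 36.0% in non-induced cells, and Rac3 is under 1% in both.

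RAC genes are close in sequence. The coding sequences of the principal Rac1 and Rac2 transcripts, 576 nt each without the stop codon, were 77.1% identical in GENCODE M21, and the longest run without a difference was 29 nt. Any longer aligned stretch of these coding sequences differed in at least 1 base. The identity to Rac3 was 76.9% for Rac1 and 80.6% for Rac2. No row of the table shared a file locus with any of the 6 genes. In GENCODE M21, genes on the opposite strand overlap Ncf1 (Gtf2ird2), Rac1 (Daglb and Gm42502) and Cyba (Gm20388). The libraries were stranded per the labels' protocols, but whether the counting used strand is not given in the sources used here.

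In mm10 (GENCODE M21, all protein-coding), Cybb lies on the minus strand of chromosome X at 9435252 to 9487771 and Cyba on the minus strand of chromosome 8 at 122424776 to 122432930. Ncf1 (134220053 to 134229625) and Rac1 (143503634 to 143528036) lie on the minus strand of chromosome 5. On chromosome 15 Ncf4 lies on the plus strand at 78244801 to 78262580 and Rac2 on the minus strand at 78559167 to 78572783. The genes on chromosome 15 were called in opposite directions.

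Promoter windows are shown for the genes whose entry was in the RefSeq table (GRCm38.p6), which were 3 of the 6. They are a called membrane subunit, an uncalled one and a called cytosolic subunit. Each window runs from 250 bases before to 50 bases after the annotated start, and is written 5′ to 3′ on the gene's own strand. For Cybb the GENCODE M21 gene reaches upstream of this window, to 9487771, and any other start was not searched. Capitals mark GGAA, the core letters of ETS factor sites, read on either strand (TTCC on the opposite one).
Cybb, chrX:9469275-9469574, minus strand: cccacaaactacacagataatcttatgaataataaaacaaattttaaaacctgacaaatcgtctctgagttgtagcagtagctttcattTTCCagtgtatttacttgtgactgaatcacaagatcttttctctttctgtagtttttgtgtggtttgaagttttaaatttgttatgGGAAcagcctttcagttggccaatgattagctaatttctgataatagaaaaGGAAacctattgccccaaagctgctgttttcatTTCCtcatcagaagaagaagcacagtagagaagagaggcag
Cyba, chr8:122432891-122433190, minus strand: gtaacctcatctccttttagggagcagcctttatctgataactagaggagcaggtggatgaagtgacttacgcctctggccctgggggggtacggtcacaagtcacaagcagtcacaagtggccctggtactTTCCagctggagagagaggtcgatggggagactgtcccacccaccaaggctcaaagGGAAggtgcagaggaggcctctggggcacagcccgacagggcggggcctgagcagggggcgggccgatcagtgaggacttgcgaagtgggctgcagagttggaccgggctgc
Ncf1, chr5:134229576-134229875, minus strand: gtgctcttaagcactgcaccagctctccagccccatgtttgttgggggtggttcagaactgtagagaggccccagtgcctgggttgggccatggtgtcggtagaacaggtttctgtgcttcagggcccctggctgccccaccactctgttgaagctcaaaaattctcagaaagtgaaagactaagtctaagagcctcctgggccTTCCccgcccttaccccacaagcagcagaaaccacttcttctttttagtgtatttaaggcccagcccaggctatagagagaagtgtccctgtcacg
The GGAA core occurred 4 times in the Cybb window, 2 times in the Cyba window and 1 time in the Ncf1 window, and at least once in 96.0% of all 32851 windows, so its presence sets none of them apart. The longer GAGGAA, which includes GGAA and is part of many described PU.1 sites, occurred 1 time in the Cybb window, on the opposite strand and starting 10 bases into the transcript, and 0 times in the Cyba and Ncf1 windows. GAGGAA was found on either strand in 28.3% of all windows. AGAGGAA occurred in none of these 3 windows and in 10.4% of all. These matches describe the letters of the windows and not binding.

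Other NOX and DUOX genes were near 0. Of these and their regulators only Noxo1, an organizer protein of NOX1, was tested by the authors, at 0.632 FPKM in induced and 0.52 FPKM in non-induced cells, and it was not called (q = 0.223, Cuffdiff, authors' deposited table). With 2 partners of the oxidase that are not oxidases, the proton channel gene Hvcn1 and BC017643, the list held 11 rows, of which 3 were tested. None was called higher and 1 was lower, against 19.0% higher and 16.1% lower over all tested rows, with a median log2 change of -0.15 against -0.01 over all tested rows of the authors' deposited table. The lower one was Hvcn1, the voltage-gated proton channel that balances the charge moved by the oxidase. Hvcn1 stood at 7.28 FPKM in induced and 17.2 FPKM in non-induced cells in the authors' deposited table (log2 change -1.24, implied standard error 0.19, q = 0.000287, Cuffdiff), and its locus there is shared with Tctn1. BC017643, an older symbol of Cybc1, which is needed for the cytochrome to be made, stood at 70.6 FPKM in induced and 78.5 FPKM in non-induced cells and was not called (q = 0.17, Cuffdiff, authors' deposited table). Its locus there holds 3 rows, Hexdc and Ogfod3 being the others. Nox3, Nox4, Noxa1, Duox2, Duoxa1 and Duoxa2 were listed at 0 in both groups.

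Exchange factors load RAC with GTP. Of 15 tested 5 were higher and 1 was lower in the authors' deposited table (33.3% and 6.67%, against 19.0% and 16.1% of all tested rows), with a median log2 change of 0.11. With p-values from the test statistic read as a normal deviate, 2 of the 15 were higher and 1 was lower, against 9.21% and 6.16% of all tested rows, and the calls of Vav3, Elmo2 and Def6 were lost. Vav2 (32.8 FPKM in induced and 17.0 FPKM in non-induced cells), Prex1 (19.1 FPKM in induced and 11.0 FPKM in non-induced cells) and Vav3 (log2 change 0.33) rose and Dock5 (log2 change -0.90) fell in the authors' deposited table. The blood cell factors Vav1 (log2 change 0.08) and Dock2 (0.11) were not called in the authors' deposited table. Of 10 tested RAC inactivators and dissociation inhibitors 6 were higher and 1 was lower there, against 19.0% and 16.1% of all tested rows, with a median log2 change of 0.31. With normal p-values 5 were higher and 1 was lower, against 9.21% and 6.16% of all tested rows. Arhgap17 (81.4 FPKM in induced and 36.3 FPKM in non-induced cells), Bcr (31.3 FPKM in induced and 15.3 FPKM in non-induced cells) and Arhgap25 (log2 change 0.77) rose in the authors' deposited table. These encode GTPase-activating proteins, which switch RAC or its relatives off. Arhgdig (log2 change -1.65) fell from a low level there, at 0.294 FPKM in induced and 0.920 FPKM in non-induced cells.

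RAC effectors and the WAVE complex, which drives actin branching, had 7 of 12 tested genes higher and 0 lower in the authors' deposited table (58.3% higher, against 19.0% of all tested rows, with a median log2 change of 0.30). Wasf2 (log2 change 0.64), the membrane-bending adaptor gene Baiap2 (0.51) and the scaffold gene Iqgap1 (0.46) led these in the authors' deposited table. Kinases and lipid enzymes of oxidase activation had 10 of 17 tested genes higher and 1 lower there (58.8% and 5.88%, against 19.0% and 16.1% of all tested rows, with a median log2 change of 0.22). Syk stood at 76.2 FPKM in induced and 25.5 FPKM in non-induced cells, and Pik3r5, a regulatory subunit of PI3Kγ, had a log2 change of 0.89 in the authors' deposited table. Prkcd, a kinase that phosphorylates Ncf1, rose (log2 change 0.61) and Prkca fell (-0.29) in the authors' deposited table. Reading the statistic as a normal deviate left 4 effectors and 6 activation enzymes called higher, against 9.21% of all tested rows. No activation enzyme was then called lower, as the call of Prkca was lost (q = 0.214).

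Genes that handle superoxide and peroxide were called in both directions. Of 20 tested 4 were higher and 5 lower in the authors' deposited table (20% and 25%, against 19.0% and 16.1% of all tested rows), with a median log2 change of 0.01. Nothing is read from these counts about the list. Gpx1, a glutathione peroxidase, stood at 540.1 FPKM in induced and 307 FPKM in non-induced cells, and catalase (Cat, log2 change 0.40) and Gclm (0.34), a subunit of the enzyme that starts glutathione synthesis, also rose in the authors' deposited table. The peroxiredoxin genes Prdx6 (log2 change -0.44) and Prdx3 (-0.41) and the mitochondrial superoxide dismutase gene Sod2 (-0.39) fell in the authors' deposited table. Reading the statistic as a normal deviate left 2 higher and 3 lower, against 9.21% and 6.16% of all tested rows. The calls of Gclm (q = 0.0602), Gclc, G6pdx and Pgd were then lost.

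**Figure D5:**
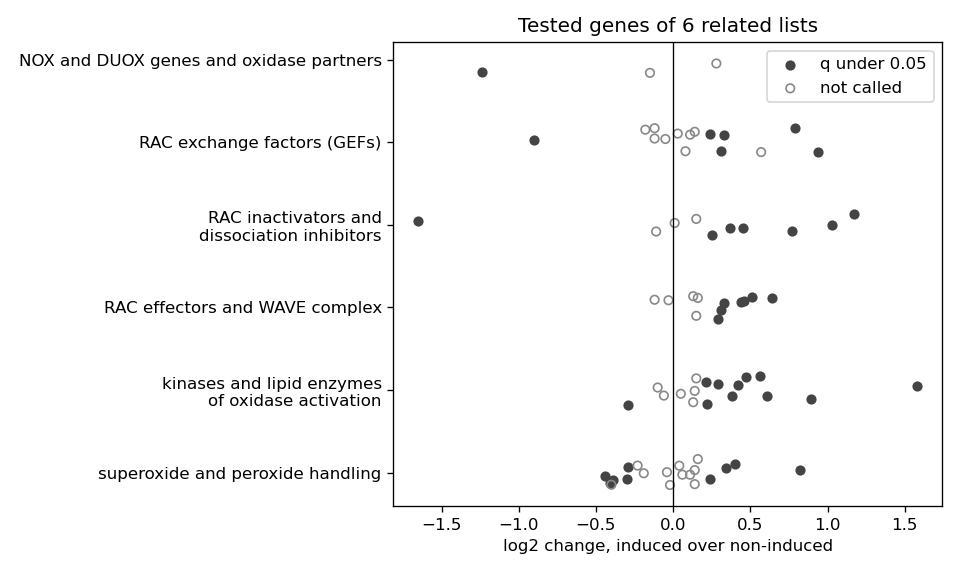
Log2 change of induced over non-induced cells (x axis) for tested genes of 6 related lists (rows), filled where the q-value was under 0.05 and open where it was not, with vertical scatter added for legibility. Effectors have 7 filled points above 0 and 0 below, while superoxide and peroxide genes have 4 above and 5 below.

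Some markers of myeloid cells were also higher in induced cells. Of 11 macrophage and monocyte markers found, 5 were tested and all 5 were higher in the authors' deposited table, against 19.0% of all tested rows. Of the 5, Mpeg1 and Cd14 were under 0.1 FPKM in non-induced cells, where 70.0% of tested rows were called higher and 0 lower. The call of Mrc1, at 0.276 FPKM in induced and 0.202 FPKM in non-induced cells, was lost with normal p-values (q = 0.425). The summed FPKM of the 11 was 24.8 in induced and 2.49 in non-induced cells. Lyz2 made up most of it, at 15.2 FPKM in induced and 0.361 FPKM in non-induced cells in the authors' deposited table, and Msr1 was listed at 0 in both groups. Of 5 dendritic cell markers 2 were tested and both were higher there, and the summed FPKM of the 5 was 4.79 in induced and 0.361 in non-induced cells. Siglech, a marker of plasmacytoid dendritic cells, stood at 3.98 FPKM in induced and 0.0389 FPKM in non-induced cells in the authors' deposited table, and so belongs to the same low rows as Mpeg1 and Cd14. Of 11 neutrophil and granulocyte markers 0 were tested, and the summed FPKM of the 11 was 0.0957 in induced and 0.208 in non-induced cells. Elane, Ctsg, S100a8, S100a9, Ltf, Csf3r and Cebpe were listed at 0 in both groups. Summed FPKM was at most 0.371 in either group for the T cell, NK cell, erythroid and megakaryocyte, and stromal markers found in the table. More cells of a type and more RNA per cell cannot be told apart in bulk libraries, and the part of these markers in the oxidase result was not tested.

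The tested genes nearest to each of the 6 by level were found as the smallest distance over log2 FPKM in both groups. With only 2 groups this describes level and change together. For Cybb they were Mpeg1, a macrophage pore-forming protein gene at 0.907 FPKM in induced and 0.0514 FPKM in non-induced cells in the authors' deposited table, and Gm12159. For Ncf1 they were Sgsm1 and Plvap, and for Ncf4 they were Ssbp3 and Pdcd4. For Rac2 they were Pkig and Psap, for Rac1 Tubb4b and 2700094K13Rik, and for Cyba Nsmce4a and Tmem59. The distances ran from 0.022 for Tubb4b to 0.52 for Gm12159 on the log2 scale.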

How the data were processed

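Per the labels' protocols, RNA was prepared on Qiagen columns and sequenced as stranded mRNA libraries. Nothing in the labels tells whether the libraries within a group were independent cultures, so p-values may measure technical spread only. Per the submitters' processing notes, the build was mm10 and the tools were Cuffdiff 2.1.1, Cufflinks, TopHat2 2.0.9 and Trim Galore 0.2.8.1. The annotation is not given in the sources used here.

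Per the file headers, the authors deposited 1 FPKM value per gene and group, a log2 fold change (induced over non-induced), Cuffdiff's test statistic (an unbounded score), and a p-value and q-value. The deposited log2 change holds spreadsheet error marks where the induced value is 0. The authors had tested 10657 rows. Exact values of 0 can be failed estimates, so such genes are said to be listed at 0.

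No test per gene was possible from group values, so calls are the authors' (q under 0.05). The fragment step was found from FPKM times length for 2873 genes with 1 transcript of at least 1000 nt. Of the values worth at most about 4 fragments, 64.7% (induced) and 70.4% (non-induced) were whole to within 0.15. Even spacing would give 30% for a step fixed beforehand, but the step was chosen to fit these same values. The 30% is therefore not a fair baseline, and fragment numbers are approximate. Fragment counts of a gene use its principal GENCODE M21 transcript. The search for the step and the adjustment of p-values were tested on simulated data. Python 3.11.15, pandas 2.3.3, NumPy 2.4.6 and SciPy 1.17.1 were used.

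The 6 genes, the 6 gene lists and the 8 marker lists were chosen with earlier results of these data known. Named genes are the 6, Spi1, and up to 3 called genes per direction and list with the largest change, plus the 2 nearest tested genes of each of the 6. Others were named after their values were seen. Alternatives for the calls were normal p-values from the test statistic, a q of 0.01, folds of 1.5 and 2, and rows that share no locus. A floor of 1 FPKM on the mean of both groups, median scaling and pseudocounts of 0.1 and 1 were also used. Some listed genes are not reported here. Protein sequences were not used here.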

Additional observations from a re-analysis of the deposited data

How the results depend on the processing

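The calls of Cybb, Ncf1, Rac2 and Ncf4 held with p-values read from the statistic as a normal deviate (3 higher and 1 lower). The counts were the same at a q of 0.01, at 1.5-fold and over rows that share no locus. These last settings could hardly change the calls. The called genes share the smallest q-value (0.000287), differ at least 1.66-fold and share no locus with another row. At 2-fold 2 were higher and 0 lower. The 2 were Cybb and Ncf1, which belong to rows tested only with a sizeable value in induced cells. The share over all tested rows was not counted at a q of 0.01, at either fold or over rows that share no locus. At these settings the counts therefore describe the 6 genes only. Over rows with a mean of both groups of at least 1 FPKM, 1 was higher and 1 lower, because the means of Cybb and Ncf1 fall under that floor. Of the tested rows that pass that floor, 1795 were called higher and 1565 lower. The number of rows that pass it was not counted, so no share is given beside the 6 genes. A pseudocount of 0.1 gave log2 changes of 3.20 for Cybb and 2.46 for Ncf1, and a pseudocount of 1 gave 1.12 and 0.78, since a pseudocount outweighs values near 0. The log2 change of Rac1, not called, was 0.0037 after subtraction of the median of tested rows of at least 10 FPKM. That median was -0.018, and no other log2 change of the 6 genes changed direction under the scalings and pseudocounts. For 29 tested rows without a finite statistic, Cd14 among them, the deposited p-value was kept in place of a normal one. With normal p-values 981 rows were called higher and 657 lower in place of 2023 and 1721. These were 9.21% and 6.16% of all tested rows. Beside them, 2 of 15 tested exchange factors, 4 of 12 effectors and 6 of 17 activation enzymes were higher. Of the 20 tested superoxide and peroxide genes 2 were higher and 3 lower, and 0 activation enzymes were lower. Over rows of at least 1 FPKM 0 RAC inactivators and dissociation inhibitors were lower (Arhgdig is under the floor).

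No paired analysis was possible because the table holds group values only, and leaving out each library was not run as there is no value per library. Values near 0 rest on about 23 to 29 fragments for Ncf1 and Cybb in non-induced cells, which limits the precision of their folds.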

Other observations

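Some further genes of the RAC pathway were picked after their values were seen. Pak1, a kinase that RAC activates, had not been tested by the authors. It was listed near 0 in both groups, at 0.145 FPKM in induced and 0.00816 FPKM in non-induced cells in the authors' deposited table. Its relative Pak2 stood at 49.6 FPKM in induced and 50.8 FPKM in non-induced cells and was not called (q = 0.81, Cuffdiff, authors' deposited table). Of the dissociation inhibitor genes, which hold RAC and its relatives in the cytosol, Arhgdib, typical of blood cells, stood at 803 FPKM in induced and 623 FPKM in non-induced cells (log2 change 0.37, implied standard error 0.13, q = 0.000287, Cuffdiff), and Arhgdia, found in most cells, at 326 FPKM in induced and 323 FPKM in non-induced cells (log2 change 0.01, q = 0.928), in the authors' deposited table. Arhgdig, the remaining member of the family, was called lower there from low values (log2 change -1.65). The differences between these changes were not tested.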
